A study of Mus musculus with 4 samples.

Results

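The genes described here encode 44 transcription factors of the myeloid lineage, the branch of blood cell development that gives rise to macrophages and to microglia, the resident macrophages of the brain. The members were chosen as a named list of ETS, RUNX, C/EBP, MAF, BACH, KLF, EGR, IKZF, GFI, nuclear receptor, bHLH, ZEB, MYB and GATA genes. The rule uses no measured value, but the list was chosen with earlier results of these data known. Each gene was taken with the 10000 bp on either side (GENCODE vM21 on GRCm38), and every row of the authors' deposited site and region tables inside these windows was read. The 44 genes stand among 21938 protein-coding genes, and 32 of the 3389 deposited regions fell in their windows.

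Whole-genome bisulfite sequencing measures the share of reads in which a cytosine resisted conversion, which is its methylation level. The study compared FACS-sorted microglia of untreated C57BL/6J mice of 3 months, with genotype WT (2 samples) or IRF8KO (2 samples), and asked where the methylome differs without IRF8. IRF8 is a myeloid transcription factor that binds DNA together with ETS partners such as PU.1, the product of Spi1. The labels do not state how the IRF8KO allele was made or the sex and litter of the animals. The cell type was not checked against marker genes, because the tables hold methylation only.

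Both deposited tables give the authors' own comparison, with no value per sample, no read depth and no genotype beside the group numbers. The text keeps the table's own numbering, first and second group, and assigns no genotype to either. A difference is the first minus the second, in units of the level, which runs from 0 to 1. Every level, difference, standard error and false discovery rate (FDR) below is the value in the authors' deposited table, so that none carries a standard deviation between replicates. The site table lists positions with a posterior probability of at least 0.95, and a listed position is said to pass the threshold when its deposited FDR is under 0.05. Neighbouring positions often share the same fitted level, so that counts of positions are not counts of independent differences.

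DNA methylation at enhancers is commonly low where transcription factors are bound and high where they are not. Factors such as PU.1, RUNX1 and the C/EBP proteins set up the enhancers of myeloid cells, while KLF, EGR, MAF and nuclear receptor factors act on them in mature macrophages. Other members, among them MYB, GATA2, TAL1, ERG and GFI1, are best known from stem cells and progenitors. This is background, and the tables do not measure binding or expression.

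At least 1 deposited region was present at 13 of the 44 genes (29.5%). Over all protein-coding genes the share was 9.19%. A region higher in the first group was present at 12 members, against 5.17% of all genes, and a region lower in the first group at 6 members, against 4.69% of all genes. At 5 members regions of both directions were present, at 7 all were higher, and at Bach2 all were lower. The 31 members with no region included Spi1, Cebpa, Cebpb, Maf, Klf4, Egr1 and Ikzf1.

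Gene length moves with these counts. Of the members under 20 kb, 4 of 23 had a region (17.4%), against 3.96% of all protein-coding genes of that length. Between 20 and 100 kb the number was 3 of 10 (30%, against 11.7%), and at 100 kb or longer 6 of 11 (54.5%, against 26.1%). The longest class held 23 of the 32 regions. Median gene length was 18.9 kb for the members and 17.4 kb for all protein-coding genes. The division by length was added after the data were seen, and these shares are descriptions without a test.

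**Figure D1:**
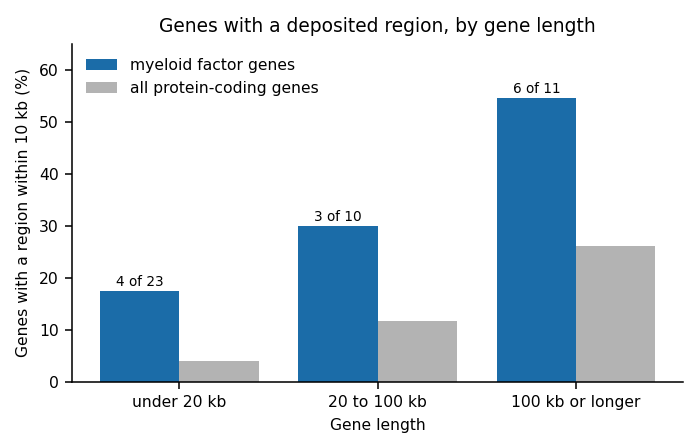
Share of genes with at least 1 deposited region inside the gene or within 10 kb (y axis, percent) in 3 classes of gene length (x axis), for the 44 myeloid factor genes (blue, with counts) and all protein-coding genes (grey). The members' share was above that of all genes in each class, and in both sets it was highest among genes of 100 kb or longer (54.5% and 26.1%).

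Of the 32, 18 regions (56.25%) had the higher level in the first group, while 14 had the lower. Over all 3389 regions 53.3% were higher. Runx2, Etv6 and Bach2 held 18 of the 32, and without these 3 genes 14 regions were left, 78.6% of them higher. With a reach of 50000 bp in place of 10000 bp the share of higher regions was 48.8%. The median absolute difference was 0.405 at the members and 0.405 over all regions. In the 18 higher regions the median level was 0.711 in the first group against 0.278 in the second. The 14 lower regions had medians of 0.347 and 0.771. The corresponding medians over all deposited regions were 0.740 and 0.311 for higher regions, and 0.332 and 0.772 for lower ones. A position past the threshold was present in 26 of the 32 regions (81.25%), against 77.9% of all regions.

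By place, 26 of the 32 regions (81.25%) were in introns, 2 on exons and 4 outside the gene. Among the 2464 deposited regions within 10000 bp of any protein-coding gene, 70.7% were in introns, 16.5% on exons and 12.8% outside. Only 1 midpoint was within 1000 bp of an annotated transcript start of its gene. None of the 32 was masked as repeat over more than 50% of its length, against 9.29% of all regions. Fewer than 3 CpGs of the reference were present in 8 of the 32 regions (25%), against 37.7% of all regions.

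**Figure D2:**
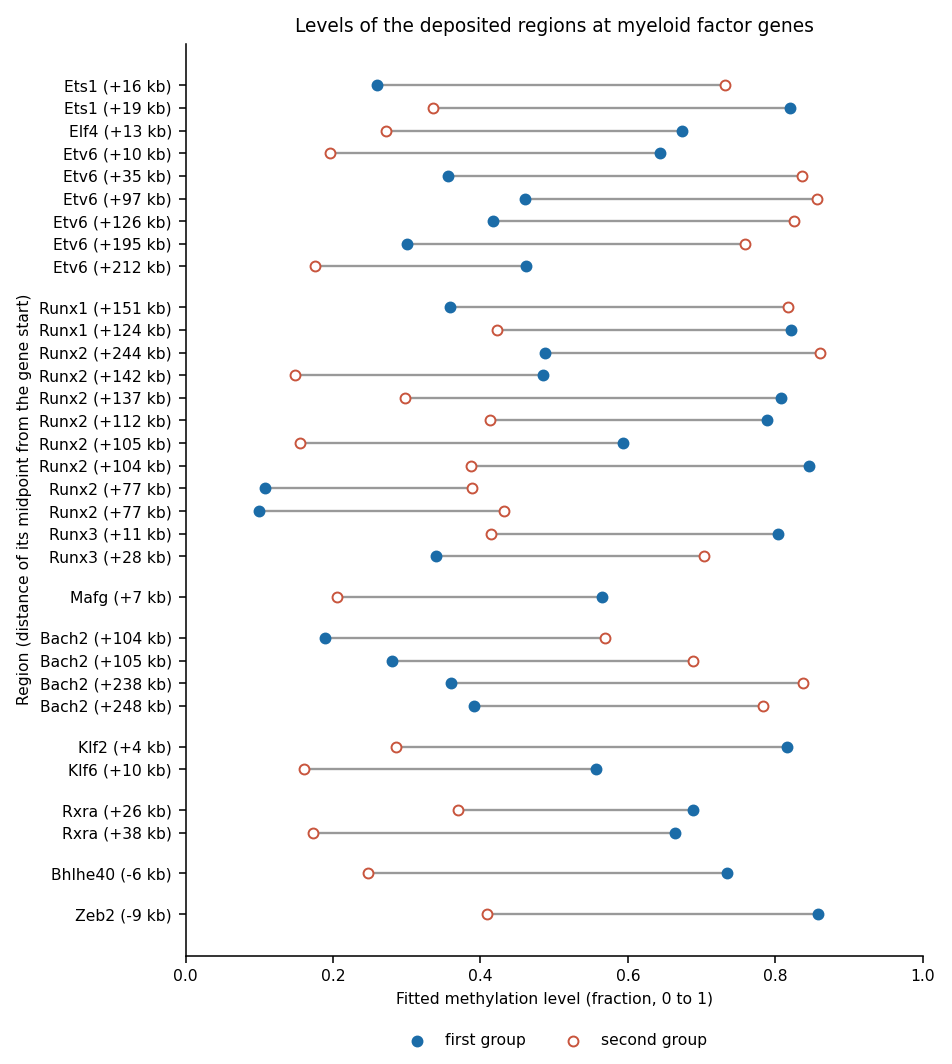
Fitted methylation level (x axis, fraction) of each of the 32 deposited regions, in the first group (filled blue) and the second group (open red), named by gene and by the distance of the midpoint from the gene start, with gaps between factor families. The KLF, Rxra, Bhlhe40, Mafg and Zeb2 regions had the higher level in the first group, the 4 Bach2 regions were lower, and ETS and RUNX genes had both.

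The windows held 1072 listed positions, 1.05% of about 102271 tested positions, against 0.63% genome-wide. Of these, 275 passed the threshold (25.7% of those listed, against 18.7% of all listed positions), which is 0.269% of the tested positions against 0.118%. They belonged to 20 of the 44 members (45.5%), against 30.8% of all protein-coding genes. Higher positions numbered 145 of 275 (52.7%), against 58.1% of all positions past the threshold. Regions contained 251 of the 275. Joined within 500 bp of each other, the 275 formed 43 clusters. The balance of directions depended on which genes and bases were counted: 73.0% of positions were higher without Runx2, Etv6 and Bach2, and 42.6% inside the genes alone.

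**Figure D3:**
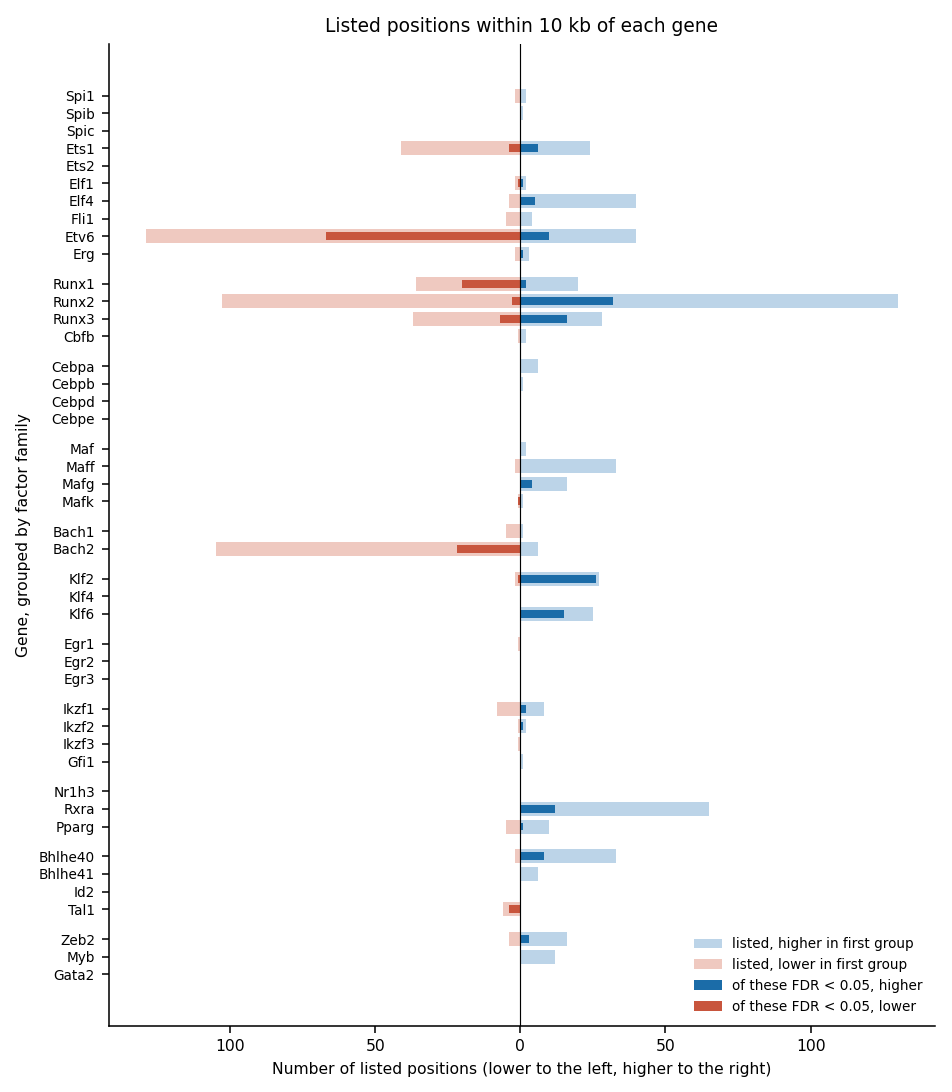
Number of listed positions within 10 kb of each gene (x axis), to the right where higher and to the left where lower in the first group, in pale colour for all listed and dark colour for those with an FDR under 0.05. Etv6 and Bach2 extend mostly to the left, while Klf2, Klf6, Rxra and Bhlhe40 extend mostly to the right.

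The ETS family has 10 members here, of which Etv6, Ets1 and Elf4 had regions, 4 higher and 5 lower in the first group. ETS proteins bind a GGAA core. Etv6 encodes a repressor needed by blood stem cells, Ets1 is best known from lymphocytes, and Elf4 from T cells and interferon responses. The family's median levels were 0.461 in the first group against 0.732 in the second over its 9 regions. These medians pool both directions, and 6 of the 9 regions were at Etv6. Of its 95 positions past the threshold, 23 were higher and 72 lower, and 77 of the 95 belonged to Etv6.

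Etv6 (ENSMUSG00000030199.16, chromosome 6) was the ETS gene with the most regions, 4 lower and 2 higher in the first group. The region of largest area score, the summed test statistic, spans 134230065 to 134230615 in an intron, 195 kb from the gene start. Its deposited levels were 0.30 and 0.759, a difference of -0.459, and 35 of its 39 listed positions passed the threshold (median standard error 0.108). A second intronic region with 39 cytosines, 134161177 to 134161621, had 0.417 against 0.825, with 20 of 39 positions past the threshold. The other lower regions were at 134132773 to 134133195 (0.461 and 0.856) and 134070372 to 134070577 (0.355 and 0.836). The latter held the position of lowest FDR in the gene, with a difference of -0.500, a standard error of 0.0698 and an FDR of 1.38e-08. That position is off the CpGs of the reference.

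The 2 higher regions of Etv6 lie toward the ends of the gene. The region from 134045349 to 134045796, 9.87 kb from the start, had deposited levels of 0.644 and 0.196, with 10 of 16 positions past the threshold. The region from 134247510 to 134247583 overlaps an exon of a non-coding transcript 19 bp from that transcript's start. It had 0.462 and 0.175, and 0 of 8 positions passed the threshold (lowest FDR 0.196). Along the gene the 4 lower regions thus stood between the higher ones, and the lower regions had high levels in the second group, from 0.759 to 0.856.

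**Figure D4:**
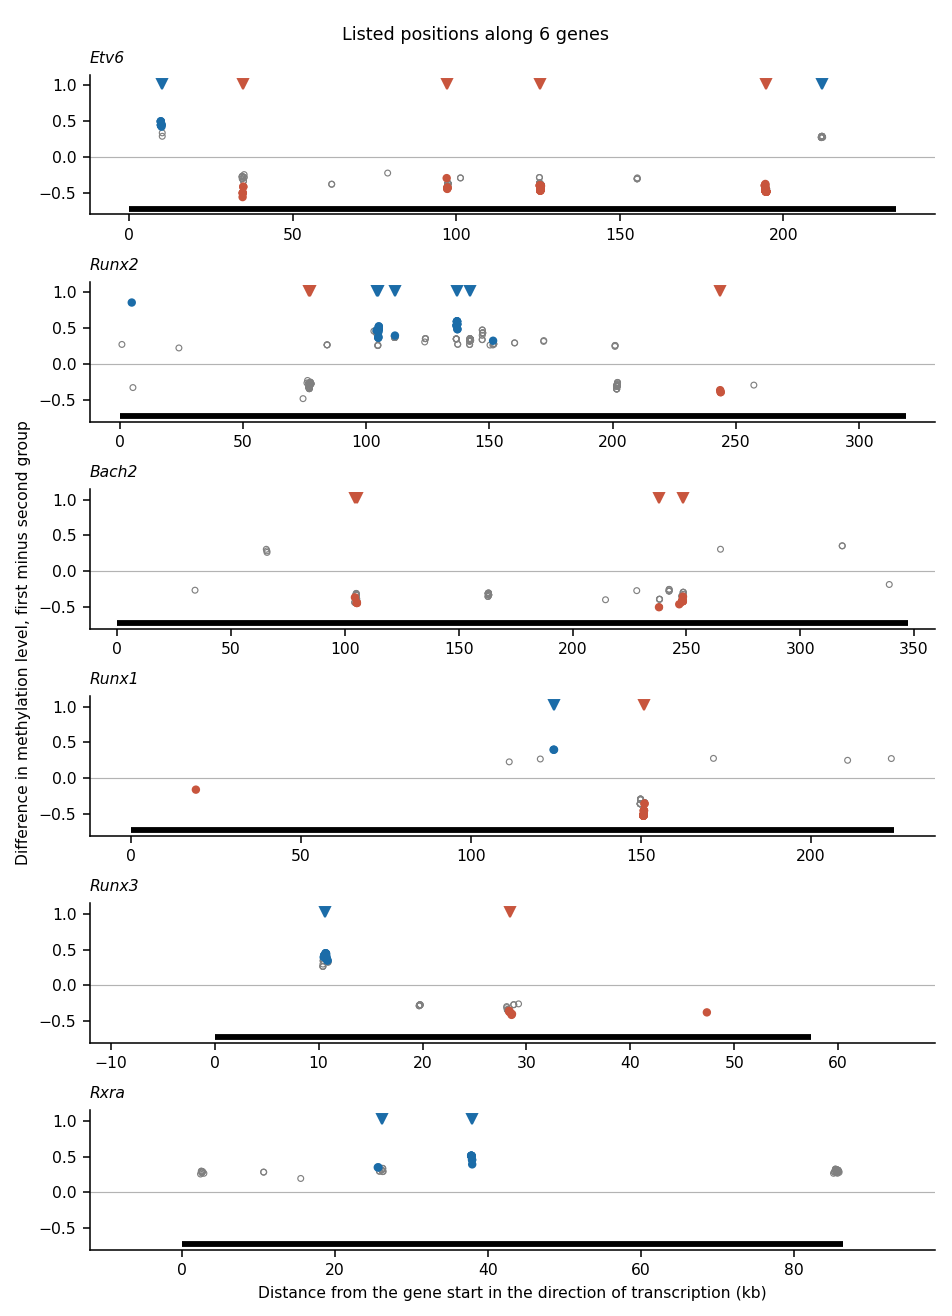
Difference in level of each listed position (y axis, first minus second group) along 6 genes (x axis, kb from the gene start in the direction of transcription), filled where the FDR is under 0.05 and blue where higher or red where lower. The black line is the gene and triangles are deposited regions. In Etv6 the 4 lower regions lie between 2 higher ones, Runx2 has 5 higher regions between 104 and 142 kb, and the regions of Bach2 are all lower.

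Ets1 (ENSMUSG00000032035.15, chromosome 9) had neighbouring regions of opposite direction in an intron. From 32652492 to 32652546 the deposited levels were 0.260 and 0.732, with 4 of 4 positions past the threshold. Further along the same gene, from 32654500 to 32655459, they were 0.820 and 0.335, with 5 of 6 past it and a lowest FDR of 1.44e-15. The position with that FDR is off the CpGs of the reference. Each of these regions holds 2 CpGs of the reference, and the longer spans 960 bp. Of the 65 listed positions around Ets1, 24 were higher and 41 lower.

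Elf4 (ENSMUSG00000031103.12) lies on the X chromosome, where levels depend on sex, and the labels give no sex. Its intronic region from 48449855 to 48450164 had deposited levels of 0.674 and 0.272, with 5 of 19 positions past the threshold. Of 44 listed positions, 40 were higher in the first group. Whether sex moves with the groups was not tested.

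Spi1, which encodes PU.1, had 4 listed positions, 2 in each direction, and none passed the threshold (lowest FDR 0.225). Fli1 had 9 and Spib 1, and none of these passed it either. Spic and Ets2 had none listed. Elf1 had 2 positions past the threshold in opposite directions, and Erg 1.

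In the RUNX family, whose proteins bind DNA with the partner encoded by Cbfb, all 3 DNA-binding members had regions of both directions. The family had 12 regions, 7 higher and 5 lower in the first group, with median levels of 0.540 and 0.413. Both directions are pooled in these medians, and 8 of the 12 regions were at Runx2. Of its 80 positions past the threshold, 50 were higher and 30 lower. Cbfb had 3 listed positions, and none passed the threshold.

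Runx2 (ENSMUSG00000039153.16, chromosome 17), known for bone formation and also expressed in blood cells, had 8 regions, the most of any member. Higher in the first group were 5 of them, all intronic and between 104 and 142 kb from the gene start. The largest spans 44677773 to 44678241, with deposited levels of 0.808 and 0.298 and 16 of 21 positions past the threshold (lowest FDR 7.21e-05). The region from 44709652 to 44709912 had 0.593 and 0.155, with 11 of 15 past it. The regions at 44710483 to 44710605, 44703193 to 44703362 and 44672523 to 44672817 had 0.846 and 0.387, 0.789 and 0.412, and 0.485 and 0.148. Of these 3, the second and the third held no position past the threshold.

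The lower regions of Runx2 differed among themselves in level. Those from 44737629 to 44737687 and from 44737821 to 44737907 have midpoints 1010 and 1216 bp upstream of the start of an internal protein-coding transcript, and were the least methylated of the 32 regions in the first group, with levels of 0.108 against 0.388 in the second group, and 0.100 against 0.432. Neither held a position past the threshold (lowest FDR 0.144 and 0.120). Far from these, the region from 44571120 to 44571198 had 0.487 and 0.861, with 1 of 5 past it. Outside the regions, the position 44809858 had a level of 0.963 in the first group against 0.103 in the second. That difference of 0.860 (standard error 0.145, FDR 1.86e-05) was the largest positive difference among all 269406 listed positions. The position was singled out after its value was seen, and 2 listed positions, itself included, lay within 1000 bp.

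These are the reference bases (GRCm38, forward strand) of the 2 Runx2 regions with midpoints 1010 and 1216 bp upstream of an internal transcript start. CpGs are in capitals. The first region is chr17:44737629-44737687 and the second is chr17:44737821-44737907.
Runx2 region 1: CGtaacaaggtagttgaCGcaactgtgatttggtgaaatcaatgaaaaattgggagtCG
Runx2 region 2: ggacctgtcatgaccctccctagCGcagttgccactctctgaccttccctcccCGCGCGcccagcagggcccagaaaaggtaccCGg

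Runx1 (ENSMUSG00000022952.17, chromosome 16), a master regulator of blood development, had 1 region in each direction. The lower region, 92674972 to 92675360, lies in an intron 151 kb from the gene start. Its deposited levels were 0.358 and 0.817, with 19 of 24 positions past the threshold (lowest FDR 0.000207). That lowest FDR belongs to a position off the CpGs of the reference. The higher region, 92701613 to 92701751, has its midpoint 4354 bp upstream of the start of an internal protein-coding transcript. Its levels were 0.822 and 0.423, with 2 of 15 positions past the threshold. The level of the more methylated group was thus nearly equal at both regions, but it belonged to the first group at one and to the second group at the other.

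Runx3 (ENSMUSG00000070691.10, chromosome 4), which acts in lymphocytes and dendritic cells, also had 1 region in each direction. The region from 135131072 to 135131530, 10.6 kb from the start, had 0.804 and 0.414 in the authors' deposited table, with 16 of 23 positions past the threshold. The region from 135148820 to 135149263, 3455 bp upstream of an internal protein-coding transcript's start, had 0.339 and 0.703, with 6 of 18 past it.

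**Figure D5:**
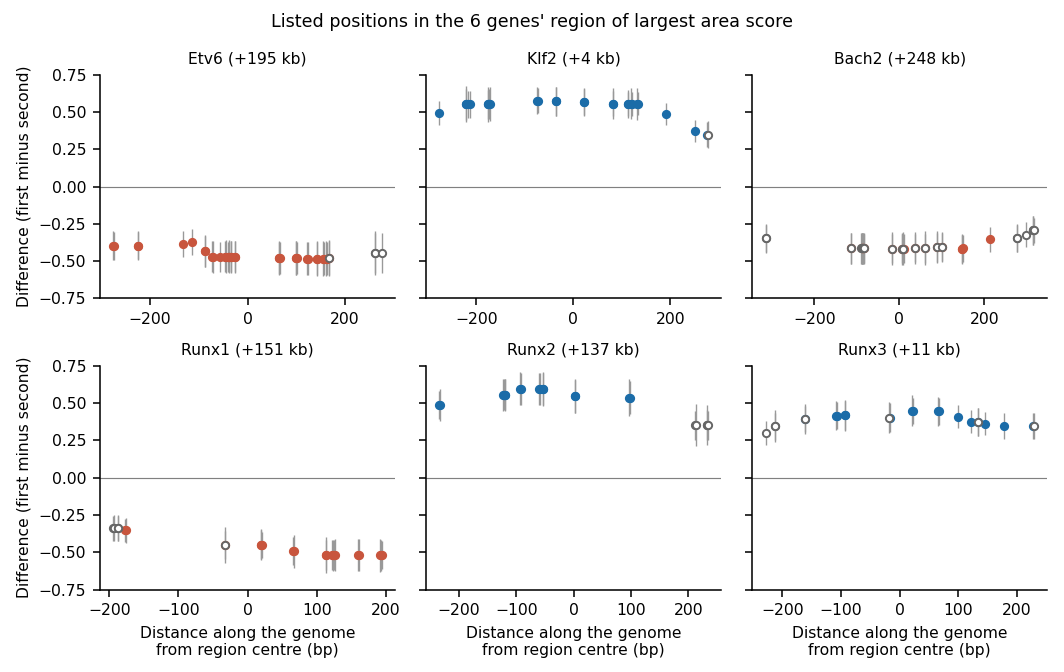
Difference in level (y axis, first minus second group) with the deposited standard error of each listed position, against the distance from the region centre (x axis, bp), for the region of largest area score in each of 6 genes. Filled points have an FDR under 0.05. Within each of these regions all positions have the same sign, and neighbouring positions share nearly the same value.

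The KLF members are zinc finger factors of resting and maturing myeloid cells, and 2 of the 3 had a region, with the first group higher by a median of 0.464. Klf2 (ENSMUSG00000055148.7, chromosome 8), which restrains inflammatory genes in monocytes, had the largest difference of the 32 regions. That region begins 871 bp past the end of the gene and spans 72322527 to 72323080. The deposited levels were 0.816 in the first group against 0.285 in the second, and 26 of its 27 positions passed the threshold (median standard error 0.0918, lowest FDR 2.81e-08). A position outside it, 72325743, went the other way, with 0.114 and 0.417 (FDR 3.08e-20). It is off the CpGs of the reference and was singled out after its value was seen.

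Klf6 (ENSMUSG00000000078.7, chromosome 13), an early response factor of macrophages, had a region 1126 bp past its end. From 5871520 to 5871952 the deposited levels were 0.557 and 0.161, with 15 of 22 positions past the threshold (lowest FDR 0.000328). That lowest FDR belongs to a position off the CpGs of the reference. All 25 listed positions around Klf6 were higher in the first group. Klf4 had no listed position.

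These 300 bases from the middle of the Klf6 region (GRCm38, forward strand, chr13:5871586-5871885) are shown beside the whole Bhlhe40 region (chr6:108654208-108654366), because both lie outside the gene and were low in the second group. Capitals mark CpGs.
Klf6: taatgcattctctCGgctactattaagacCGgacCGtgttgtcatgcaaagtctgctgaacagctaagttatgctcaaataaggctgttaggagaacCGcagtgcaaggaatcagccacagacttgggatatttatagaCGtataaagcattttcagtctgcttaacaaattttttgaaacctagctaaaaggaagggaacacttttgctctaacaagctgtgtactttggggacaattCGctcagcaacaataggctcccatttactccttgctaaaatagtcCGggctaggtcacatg
Bhlhe40: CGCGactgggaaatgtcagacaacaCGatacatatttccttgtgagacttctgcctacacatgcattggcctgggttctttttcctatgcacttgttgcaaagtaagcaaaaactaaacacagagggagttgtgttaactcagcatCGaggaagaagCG

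The EGR members, zinc finger factors induced early by growth and differentiation signals, had 1 listed position in all, at Egr1, and it did not pass the threshold. Egr2 and Egr3 had none. The C/EBP members, which drive granulocyte and monocyte genes, had 7 listed positions, all higher in the first group, and none passed the threshold. Of these, 6 were at Cebpa and 1 at Cebpb, while Cebpd and Cebpe had none. Around C/EBP genes the listed share of tested positions was 0.223%, below the 0.63% of the genome.

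BACH proteins pair with the small MAF proteins at shared elements. The only region at MAF genes, at Mafg, was higher in the first group, and the 4 at BACH genes, all at Bach2, were lower. Among the small MAF genes, Mafg (ENSMUSG00000051510.13, chromosome 11) had 1 region, 120626599 to 120626677 in its UTR, with deposited levels of 0.564 and 0.205 and 4 of 6 positions past the threshold. It holds 1 CpG of the reference, and none of the 4 positions past the threshold is on a CpG of the reference. All 16 listed positions of Mafg were higher in the first group, and 6 of them are on such CpGs. At Maff 33 of 35 were higher, but none passed the threshold (lowest FDR 0.156), and there was no region. Mafk had 1 position past it, lower in the first group. Maf itself had 2 listed positions, and neither passed it.

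Bach2 (ENSMUSG00000040270.16, chromosome 4), a repressor best known from lymphocytes, had 4 regions, all lower in the first group. The family medians, from these 4 regions, were 0.320 and 0.736. The largest region, 32486782 to 32487413, lies in an intron 248 kb from the gene start and had deposited levels of 0.391 and 0.783. Of its 36 positions, 16 passed the threshold (median standard error 0.0997, lowest FDR 0.00854 at a position off the CpGs of the reference). The region next to it, 32476768 to 32477012, had 0.361 and 0.837, with 1 of 9 past it. A further pair lies at 104 and 105 kb, from 32343106 to 32343268 (0.190 and 0.570, 1 of 9 past it) and from 32343833 to 32344063 (0.280 and 0.688, 3 of 14 past it). Of 111 listed positions around Bach2, 105 were lower, and all 22 past the threshold were lower. Bach1, which represses heme and oxidative stress genes, had 6 listed positions, 5 of them lower, and none passed the threshold.

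The Bach2 region is printed with the strongest Etv6 region, because both were lower in the first group, each with 16 CpGs of the reference. Each is the central 300 bases on the forward strand of GRCm38, chr4:32486947-32487246 and chr6:134230190-134230489, with CpGs in capitals.
Bach2: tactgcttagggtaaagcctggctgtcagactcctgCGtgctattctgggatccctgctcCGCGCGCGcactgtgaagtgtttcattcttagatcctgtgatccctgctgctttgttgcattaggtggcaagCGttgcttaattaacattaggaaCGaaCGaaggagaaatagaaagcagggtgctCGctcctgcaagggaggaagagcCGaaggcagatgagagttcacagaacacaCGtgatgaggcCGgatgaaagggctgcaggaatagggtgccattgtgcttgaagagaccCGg
Etv6: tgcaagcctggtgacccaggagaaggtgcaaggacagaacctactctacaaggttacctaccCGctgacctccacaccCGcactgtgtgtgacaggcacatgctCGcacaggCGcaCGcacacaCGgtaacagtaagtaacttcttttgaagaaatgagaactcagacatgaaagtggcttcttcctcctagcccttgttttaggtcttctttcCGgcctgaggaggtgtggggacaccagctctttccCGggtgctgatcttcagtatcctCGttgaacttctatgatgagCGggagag

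The IKZF and GFI genes, zinc finger regulators of lymphoid and myeloid fate, had no region. Ikzf1 had 16 listed positions, 8 in each direction, and 2 passed the threshold. Both of these were higher in the first group. Ikzf2 had 1 position past the threshold, also higher, while Ikzf3 and Gfi1 had none.

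Among the nuclear receptors, Rxra (ENSMUSG00000015846.14, chromosome 2) differed in a single direction. Its protein is the shared partner of the LXR and PPAR receptors that control lipid handling in macrophages. All 65 listed positions were higher in the first group, and 12 passed the threshold. The intronic region from 27714246 to 27714416 had deposited levels of 0.664 and 0.173, with 10 of 14 positions past it. The other, 27702573 to 27702729, had 0.688 and 0.370, with none of 5 past it (lowest FDR 0.0528), and holds 0 CpGs of the reference. Pparg had 15 listed positions and 1 past the threshold, higher in the first group. Nr1h3, which encodes an LXR receptor, had none listed.

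In the bHLH and ID group, Bhlhe40 (ENSMUSG00000030103.11, chromosome 6), a repressor active in macrophages, had the only region, 6263 bp upstream of the gene. From 108654208 to 108654366 the deposited levels were 0.735 and 0.248, with 8 of 10 positions past the threshold (lowest FDR 0.000135). An antisense transcript, 0610040F04Rik, covers the same bases. Of 35 listed positions around Bhlhe40, 33 were higher in the first group. Its relative Bhlhe41 had 6 listed positions, all higher, and none passed the threshold, and Id2 had none.

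Tal1, a factor of stem cells and red cell precursors, was the member without a region that had the most positions past the threshold. All 6 of its listed positions were lower in the first group. The 4 past the threshold lie upstream, at -1.46 to -1.12 kb from the gene start, with differences from -0.399 to -0.323. At the farthest, 115054971 on chromosome 4, the levels were 0.440 and 0.839 (FDR 1.98e-05). That position and 115055261 (FDR 4.47e-05) are off the CpGs of the reference.

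Zeb2 (ENSMUSG00000026872.17, chromosome 2), a zinc finger repressor that keeps the identity of tissue macrophages, had 1 region 8408 bp upstream. It spans 45125803 to 45126574, with levels of 0.858 and 0.409 in the authors' deposited table, and 3 of 4 listed positions passed the threshold. It holds 2 CpGs of the reference over 772 bp. Myb, a progenitor factor, had 12 listed positions, all higher, and none passed the threshold (lowest FDR 0.0850). Gata2 had none.

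IRF8 and ETS proteins bind together at a composite element, and the 32 regions were searched for GGAA followed after any 2 bases by GAAA, on both strands. The element was present in 2 of 18 higher regions, those of Klf2 and Zeb2, and in 0 of 14 lower regions. Over all deposited regions it was present in 2.16% of those higher and 17.6% of those lower in the first group. Of 10115734 windows of 253 bp, the members' median region length, on the autosomes and X, 2.78% held it. The Klf2 and Zeb2 regions are longer than these windows, at 554 and 772 bp, and the median over all deposited regions was 199 bp. These shares are therefore not matched for length. Within 250 bp of the midpoint, the element was present at 1 lower region, in Ets1. The related element of GAAA, any 2 bases and GAAA was present in 2 higher and 2 lower regions and in 4.84% of all regions. A match is a description of letters and not a measured site.

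Both matches have the same 10 bases, GGAAAAGAAA, on the forward strand at Klf2 and on the reverse strand at Zeb2. They are shown in capitals within 300 bases of the forward strand of GRCm38, chr8:72322713-72323012 and chr2:45125872-45126171.
Klf2: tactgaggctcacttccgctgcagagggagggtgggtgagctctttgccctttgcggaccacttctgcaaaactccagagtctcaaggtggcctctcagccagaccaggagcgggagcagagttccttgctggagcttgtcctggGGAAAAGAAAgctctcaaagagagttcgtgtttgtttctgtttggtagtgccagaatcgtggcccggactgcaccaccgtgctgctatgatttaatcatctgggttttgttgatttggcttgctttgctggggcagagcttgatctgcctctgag
Zeb2: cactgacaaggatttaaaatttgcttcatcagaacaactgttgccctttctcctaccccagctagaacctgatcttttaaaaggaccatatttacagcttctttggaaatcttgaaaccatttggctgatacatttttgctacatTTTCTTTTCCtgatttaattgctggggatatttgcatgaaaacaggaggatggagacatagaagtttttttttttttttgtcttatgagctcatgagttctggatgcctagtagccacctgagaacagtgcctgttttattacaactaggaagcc

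Other genes grouped with these families, by name or as partners of their proteins, were read in the same way. The partners, among them Cbfa2t3, Nab1 and Lmo2, are not themselves family members. Of 70 such genes, listed by family, 6 had a region (8.57%), against 9.19% of all protein-coding genes, with 3 higher and 6 lower regions in all. Positions past the threshold were present at 12 of the 70, against 30.8% of all protein-coding genes. Their median gene length was 18.4 kb, but only 7 of the 70 were 100 kb or longer, against 11 of the 44 members. By length, a region was present at 3 of 36 relatives under 20 kb, at 3 of 27 between 20 and 100 kb and at 0 of the 7 longest. Cbfa2t3, a corepressor that works with the product of Tal1, had 4 of these regions, all lower in the first group, with deposited differences from -0.496 to -0.366. Cebpz had a lower region of -0.366 and Lmo2, which encodes a partner of TAL1, another of -0.338. Rxrg, Klf15 and Erf had 1 higher region each, with differences of 0.316, 0.380 and 0.309, and no position in these 3 regions passed the threshold.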

How the data were processed

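Microglial DNA of 2 WT and 2 IRF8KO samples was bisulfite-converted, amplified and sequenced as paired reads, per the labels' protocols. Trim Galore, Bismark and the mm10 build are named in the submitters' processing notes. The program of the group comparison was not given in the sources used here, nor were any settings.

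The authors deposited 2 tables, 1 of positions and 1 of regions. Per the file headers, levels (mu, mean methylation) are a fraction from 0 to 1 for each group, and dispersions and posterior probabilities are a fraction as well. Test statistics and area scores are a score, and the deposited p-value and FDR belong to each position. Differences and standard errors are also the authors' deposited scores on the fraction scale. The tables hold no value per sample and no coverage, so depth is unknown, no interval or replicate spread could be given, and a coverage minimum could not be set. The replicates' origin is not labelled, so that the deposited p-values may measure technical spread.

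Positions and regions were joined to GENCODE vM21 genes and to the RefSeq GRCm38 sequence with Python 3.11.15, pandas 2.3.3 and pysam 0.24.0. The motif search and the rule for window edges were first tried on simulated cases, but the joins themselves were not. How many positions were tested around a gene was interpolated from the row numbers in the position table. A region's direction is the sign of its deposited difference, and no test was added. All members with a region were described with each region. Of those without one, members with at least 3 positions at an FDR under 0.05 were described with values, and the others were only named or given as counts. The lowest FDR of Spi1, Maff and Myb was added after values were seen. Up to 6 relatives were named by area score. The members and gene lists were chosen with earlier results of these data known.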

Additional observations from a re-analysis of the deposited data

How the results depend on the processing

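Of 66 alternative values, 48 stayed within 1.5 times a count, or within the 95% exact binomial interval or 1 SD of a value, without a reversed direction. Among these, the higher share was 50%, with no direction, for regions inside genes alone. It was also 50% for positions whose dispersion differed from the commonest value in both groups. The interval treats positions or regions as independent, which neighbouring ones are not, so that it is only a yardstick. The 32 regions became 19 with at least 10 cytosines and 14 without Runx2, Etv6 and Bach2 (chosen after seeing the data). Their higher share of 56.25% became 48.8% with a reach of 50000 bp and 78.6% without those 3 genes. The number of members with a region, 13, ranged from 9 inside genes alone to 19 with a reach of 50000 bp. The 275 positions became 139 at an FDR under 0.01, 61 at 0.001, 43 when joined into clusters, 1072 when all listed were taken, and 141 without the 3 genes. Their higher share of 52.7% became 64.0% at 0.01, 75.4% at 0.001, 42.6% inside genes alone, 47.3% with a reach of 50000 bp and 73.0% without the 3 genes. These alternatives count fewer or more genes, positions or bases by construction, and beyond that the cause was not tested. The composite element's 2 higher regions became 18 with the ETS core alone, which 92.7% of windows of 253 bp hold. Its 0 lower regions became 1 within 250 bp of the midpoint, 12 with the ETS core alone and 2 with the IRF element.

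No paired analysis was possible because levels are deposited per group and not per sample. A fit with the replicate block, the leaving out of a replicate and a coverage minimum were therefore not run. Which genotype is the first group is not named in the tables, and the read depth behind each level is unknown. Of the listed positions around the members, 20% are off the CpGs of the reference. In most member regions the position of lowest FDR was off these CpGs as well.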

Other observations

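Between 10 and 50 kb from the members lay a further 11 regions of the authors' deposited table, 3 higher and 8 lower in the first group. The 3 higher ones were near genes that already had a higher region, Ets1 (13122 bp away, difference 0.401), Bhlhe40 (33622 bp, 0.432) and Runx3 (39757 bp, 0.430). Near 6 members that had no region within 10 kb, Bach1, Bhlhe41, Cebpd, Myb, Klf4 and Gfi1, all regions were lower in the first group, though the region near Gfi1, 45533 bp away, lies nearest to Evi5. The Bach1 region 14977 bp away had levels of 0.336 and 0.801, and that near Myb, 31254 bp away, had 0.224 and 0.642. The region near Cebpd, 26635 bp away and nearest to Mzt2, had 0.318 and 0.695 and was the only one of the 11 that held the composite element. The region 47994 bp from Klf2 had 0.398 and 0.869, with 33 of 33 positions at an FDR under 0.05. It was opposite in direction to the region beside Klf2 and lies nearest to Ap1m1. The region within the 10000 bp limit that lay farthest from its gene was that of Zeb2, at 8408 bp. These values are given as descriptions, with no test.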
